A study of Mus musculus with 9 samples.

Results

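Gfap, Aqp4, Slc1a2, Slc1a3, Aldh1l1, Gja1, Apoe, Glul, Clu and S100b are genes used to recognise astrocytes, and here their transcripts were read in hippocampal nuclei that had been sorted for the neuronal protein NeuN. The 10 genes were listed by name as known astrocyte genes, and all 10 were found by symbol among the 48709 gene identifiers of the exon count files. The rule for the list uses no measured value, but the genes were chosen with earlier results of these data known. Each was measured in 9 libraries, 3 per group. The first group was wildtype mice given tap water (WT vehicle), the second was Tg4-42 mice given tap water (Tg4-42 vehicle), and the third was Tg4-42 mice given 300 mg/l caffeine in the drinking water (Tg4-42 caffeine). All were on a C57BL/6J background, the treatment ran for 4 months from 2 months of age, and tissue was taken at 6 months. Tg4-42 mice are homozygous for a transgene in which the neuron-specific murine Thy1 promoter drives human Aβ4-42 behind a signal peptide, so the transgene is designed to be expressed by neurons and not by astrocytes. The labels give no sex for single mice, the study's methods describe freezing of entire hippocampi for male Tg4-42 mice, and wildtype mice on caffeine were not analysed here, so that caffeine was compared on the transgenic background only.

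Astrocytes clear glutamate from the synapse through the transporters encoded by Slc1a2 (GLT-1) and Slc1a3 (GLAST) and convert it to glutamine with glutamine synthetase (Glul). They are joined to each other by gap junctions of connexin 43 (Gja1) and take up water at perivascular endfeet through aquaporin 4 (Aqp4). They also secrete the lipid carrier apolipoprotein E (Apoe) and the extracellular chaperone clusterin (Clu), both of which bind Aβ and both of which are genetic risk factors for Alzheimer's disease. Glial fibrillary acidic protein (Gfap) is the intermediate filament that rises in reactive astrocytes, S100b encodes a secreted calcium-binding protein, and Aldh1l1 encodes a folate enzyme that is used as a pan-astrocyte marker. Several of these genes are not exclusive to astrocytes: Clu and Slc1a2 are also transcribed in some neurons, Apoe in microglia, and Glul and S100b in oligodendrocytes.

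The libraries held 9342945 to 16376922 exon counts each, and the 10 genes together took 6818 to 14580 of them, or 0.0546% to 0.0923% of a library. All 10 genes passed the filter on low counts, which kept 17361 genes. Values are given below as CPM, the usual unit of counts scaled to a library of fixed size, with library sizes scaled by TMM, and where different genes are compared, as CPM per kilobase of annotated exon. A count of 3 corresponded to 0.190 to 0.325 CPM on this scale. The neuronal label of the nuclei was met by the levels of neuronal genes: the synaptic genes Snap25 and Syt1 had medians over the 9 mice of 410 and 342 CPM per kilobase, the vesicular glutamate transporter Slc17a7 had 141, and Rbfox3, which encodes NeuN itself, had 20.03.

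Against these neuronal genes, the astrocyte genes spread over a range of levels. Clu stood first with a median of 99.3 CPM per kilobase over the 9 mice, and its lowest mouse at 51.4 was above the highest Apoe value of 41.6. Apoe had a median of 31.7 and Slc1a2 of 17.7 CPM per kilobase, and their ranges over mice overlapped. Every Slc1a2 value lay above every value of Slc1a3, S100b, Glul and Gfap, which had medians of 5.79, 5.08, 4.11 and 3.75 CPM per kilobase and overlapped each other in that order. Aqp4, Gja1 and Aldh1l1 closed the list at 1.08, 1.03 and 0.903 CPM per kilobase, with overlapping ranges. Clu thus lay at percentile 98.2 of all tested genes by level and Apoe at 91.3, whereas Aqp4, Gja1 and Aldh1l1 lay between percentiles 18.8 and 21.4. Clu alone supplied a median of 45.4% of the summed CPM of the 10 genes, Slc1a2 33.2% and Apoe 8.57%, so any sum over the list is mainly a reading of Clu and Slc1a2.

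**Figure D1:**
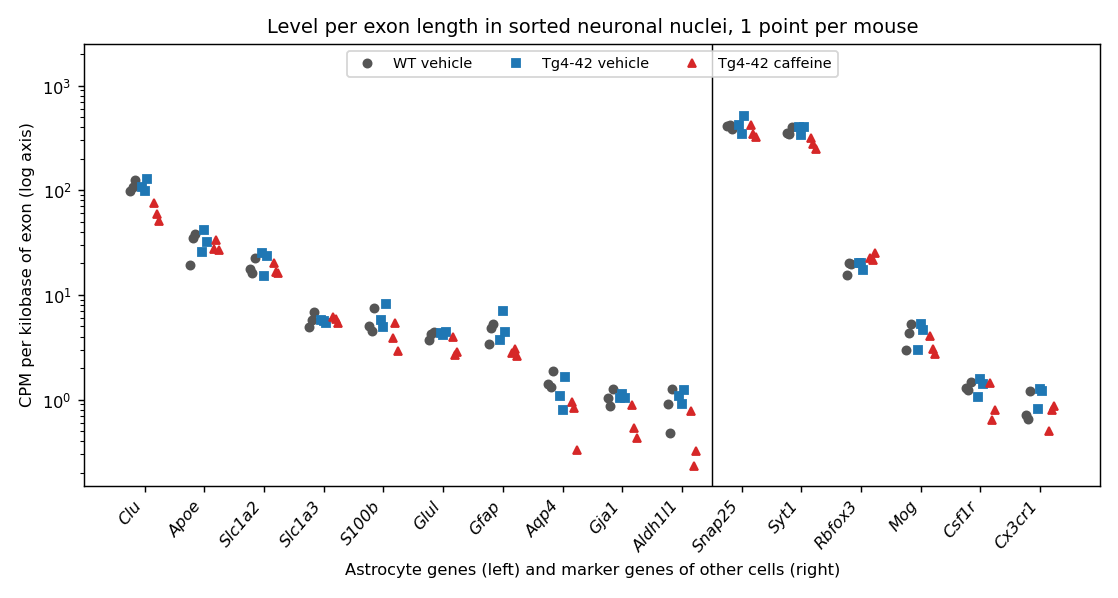
Level of each astrocyte gene (left of the line) and of marker genes of neurons (Snap25, Syt1, Rbfox3), oligodendrocytes (Mog) and microglia (Csf1r, Cx3cr1) in CPM per kilobase of exon on a log axis, with 1 point per mouse and a colour and symbol per group. Clu is the astrocyte gene nearest to the synaptic genes, with a median of 99.3 against 410 for Snap25, and Aqp4, Gja1 and Aldh1l1 sit near 1.

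The promoter windows of 3 genes are shown because these genes span the range of differences with caffeine described below: Gfap and Aldh1l1, whose caffeine values all lay below those of vehicle-treated Tg4-42 mice, and Slc1a3, whose group means were nearly equal. Each window holds the 250 bases before the transcription start in RefSeq (GRCm38.p6) on the strand of the gene, and capitals mark matches to the motifs searched. They come from chr11:102897201-102897450 on the minus strand for Gfap, chr6:90550543-90550792 on the plus strand for Aldh1l1 and chr15:8710808-8711057 on the minus strand for Slc1a3.
Gfap: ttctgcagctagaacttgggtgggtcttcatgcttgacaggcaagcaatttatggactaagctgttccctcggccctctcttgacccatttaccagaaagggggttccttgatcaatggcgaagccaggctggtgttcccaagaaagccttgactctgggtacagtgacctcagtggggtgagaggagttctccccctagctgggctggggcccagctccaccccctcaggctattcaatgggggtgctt
Aldh1l1: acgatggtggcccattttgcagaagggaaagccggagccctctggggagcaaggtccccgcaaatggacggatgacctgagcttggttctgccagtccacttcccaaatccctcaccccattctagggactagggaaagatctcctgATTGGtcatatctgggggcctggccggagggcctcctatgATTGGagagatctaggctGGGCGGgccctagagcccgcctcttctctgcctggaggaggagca
Slc1a3: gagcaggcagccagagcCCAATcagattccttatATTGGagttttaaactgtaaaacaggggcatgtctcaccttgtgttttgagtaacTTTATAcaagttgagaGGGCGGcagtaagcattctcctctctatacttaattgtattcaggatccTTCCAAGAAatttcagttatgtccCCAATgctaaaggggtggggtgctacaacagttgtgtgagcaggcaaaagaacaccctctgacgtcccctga
The motifs, searched on both strands, were the TATA box (TATAAA, found in 12.4% of the 32851 windows of this length), the CCAAT box (CCAAT, 33.8%), an NFI site pair (0.703%) and a single NFI motif (TTGGCA, 12.3%), a STAT motif (7.02%), a SOX motif (ACAAAG, 16.5%), the GC box (GGGCGG, 32.7%) and an AP-1 motif (TGANTCA, 6.75%). The NFI pair was TGGC and GCCA separated by 5 free bases, and the STAT motif was TTC and GAA separated by 3. A CCAAT box and a single NFI motif can share letters, but no matches overlapped in these windows. The Gfap window held no match to any of them, which says only that these letters are not in this window. The Aldh1l1 window held CCAAT boxes at positions -103 and -63 from the start and a GC box at -45. The Slc1a3 window held 3 CCAAT boxes, a TATA box at -161, a GC box at -145 and a STAT match at -96. The counts do not tell which start site a transcript came from. Exon counts of Slc1a2, Aldh1l1 and Glul could also be affected by annotated genes whose exons overlap theirs. On the opposite strand these were Gm13872 (189 bases of Slc1a2), Gm15756 (499 bases of Aldh1l1) and Teddm2 (116 bases of Glul). On the same strand they were Gm45901 (105 bases of Aldh1l1) and Mir8114 (93 bases of Glul). The library kit does not mark strand, and how reads shared by overlapping genes were counted is not given.

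Among the secreted proteins, Clu (ENSMUSG00000022037, chr14:65968483-65981547 in GRCm38) was lower in caffeine-treated mice than in either vehicle group. It was read at 341, 366 and 428 CPM in the WT mice, at 369, 341 and 439 CPM in vehicle-treated Tg4-42 mice and at 262, 203 and 177 CPM in caffeine-treated Tg4-42 mice. The 3 caffeine values lay below all 6 vehicle values, and the WT and vehicle-treated Tg4-42 mice overlapped fully. Caffeine-treated mice thus had 0.557 times the Clu level of vehicle-treated Tg4-42 mice, a log2 fold change of -0.84 (SE 0.16, 95% interval -1.17 to -0.51, edgeR adjusted p = 0.0385), and 0.565 times that of WT mice (log2 fold change -0.82, SE 0.16, edgeR adjusted p = 0.0297). In bulk nuclei, fewer nuclei of a cell type and less RNA per nucleus cannot be told apart. The call against vehicle-treated Tg4-42 mice was narrow: it was lost with the sequencing lane as a covariate (edgeR adjusted p = 0.0554) and without vehicle replicate 1 (0.0678), vehicle replicate 3 (0.222), caffeine replicate 2 (0.0739) or caffeine replicate 3 (0.278), with the log2 fold change between -1.02 and -0.72 throughout. Against WT it was lost with the lane covariate (0.0551) and without WT replicate 2 (0.0931), WT replicate 3 (0.113), caffeine replicate 2 (0.0923) or caffeine replicate 3 (0.288).

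Apoe (ENSMUSG00000002985), the lipid carrier with the same receptors as several other lipoproteins, did not share the lower values of Clu. Its values were 41.5, 74.4 and 80.8 CPM in WT mice, 55.5, 89.0 and 67.8 CPM in vehicle-treated Tg4-42 mice and 58.7, 71.6 and 57.8 CPM with caffeine. The 3 groups overlapped, and the widest spread was among the WT mice. The log2 fold change with caffeine was -0.18 (95% interval -0.67 to 0.31, edgeR adjusted p = 0.744), an interval that includes changes in both directions. Apoe also varied more between replicate mice than genes of its abundance, with a biological coefficient of variation of 0.195 against 0.129 on the edgeR trend.

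Gfap (ENSMUSG00000020932, chr11:102887336-102900912), the filament of reactive astrocytes, was read at 14.2, 20.5 and 22.2 CPM in WT mice, at 15.8, 29.3 and 18.6 CPM in vehicle-treated Tg4-42 mice and at 11.7, 12.8 and 10.9 CPM in caffeine-treated Tg4-42 mice. As for Clu, the caffeine values lay below all 6 vehicle values, and they were also the tightest of the 3 groups (SD 0.942 CPM against 7.13 CPM in vehicle-treated Tg4-42 mice). Against vehicle, the fitted log2 fold change was -0.86 (SE 0.23, 95% interval -1.34 to -0.37) and missed the threshold over all genes (edgeR adjusted p = 0.0860). Against WT it was -0.69 (SE 0.23, edgeR adjusted p = 0.166). DESeq2 called Gfap lower against vehicle-treated Tg4-42 mice (adjusted p = 0.0186), as did limma-voom with quality weights (adjusted p = 0.0459). EdgeR without a filter on low counts also called it (adjusted p = 0.00168). These were 3 of 7 alternative settings, and in the others the edgeR adjusted p reached 0.109. None of the 6 fits without 1 mouse called Gfap (edgeR adjusted p from 0.0822 to 0.405). No higher Gfap level was detected in Tg4-42 mice on tap water than in WT mice (log2 fold change 0.17, 95% interval -0.30 to 0.64), and that small difference changed sign without vehicle replicate 2, the mouse at 29.3 CPM. S100b, the calcium-binding protein, had 7.53, 6.70 and 11.2 CPM in WT mice, 8.55, 7.38 and 12.1 CPM in vehicle-treated Tg4-42 mice and 5.81, 7.95 and 4.31 CPM with caffeine. Its groups overlapped through caffeine replicate 2, and the log2 fold change against vehicle was -0.63 (95% interval -1.22 to -0.04, edgeR adjusted p = 0.264).

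None of the genes of glutamate uptake and conversion passed the test, and their fold changes with caffeine were unequal. Slc1a2, the main astrocytic glutamate transporter, had 232, 214 and 298 CPM in WT mice, 327, 198 and 310 CPM in vehicle-treated Tg4-42 mice and 266, 216 and 211 CPM with caffeine. These groups overlapped, with a log2 fold change against vehicle of -0.27 (95% interval -0.65 to 0.12, edgeR adjusted p = 0.483). Slc1a3, the second transporter, had the smallest spread over the 9 mice relative to its mean, with 42.1, 49.4 and 58.4 CPM in WT mice, 49.6, 48.1 and 46.0 CPM in vehicle-treated Tg4-42 mice and 52.3, 50.5 and 46.0 CPM with caffeine. Its log2 fold change against vehicle was 0.05 (95% interval -0.23 to 0.33, edgeR adjusted p = 0.881), so that a change in Slc1a3 as large as that of Clu lies outside its interval. Glul, which makes glutamine, had 12.3, 14.2 and 14.7 CPM in WT mice, 14.4, 13.7 and 14.6 CPM in vehicle-treated Tg4-42 mice and 13.1, 8.78 and 9.46 CPM with caffeine. The caffeine values of Glul were below the 3 vehicle-treated Tg4-42 values, caffeine replicate 1 by a small margin, and overlapped the WT values (log2 fold change against vehicle -0.45, 95% interval -0.84 to -0.05, edgeR adjusted p = 0.242).

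The channel genes had lower means with caffeine, without passing the test. Gja1, which encodes connexin 43, was read at 10.6, 8.84 and 12.8 CPM in WT mice, at 10.7, 11.7 and 10.5 CPM in vehicle-treated Tg4-42 mice and at 9.04, 5.46 and 4.38 CPM with caffeine. The caffeine values lay apart from those of vehicle-treated Tg4-42 mice, and replicate 1 overlapped the WT range (log2 fold change against vehicle -0.80, 95% interval -1.33 to -0.27, edgeR adjusted p = 0.124). Aqp4, the endfoot water channel, had 8.71, 8.27 and 11.7 CPM in WT mice, 6.71, 5.01 and 10.2 CPM in vehicle-treated Tg4-42 mice and 5.95, 5.19 and 2.08 CPM with caffeine. Aqp4 was the only member whose means descended from WT (9.56 CPM) over vehicle-treated (7.30 CPM) to caffeine-treated Tg4-42 mice (4.41 CPM). All its caffeine values lay below all WT values (log2 fold change -1.11, 95% interval -1.83 to -0.39, edgeR adjusted p = 0.140), and the vehicle-treated Tg4-42 mice overlapped both. DESeq2 called this difference from WT (adjusted p = 0.0391). The lowest Aqp4 value rested on 27 counts.

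Aldh1l1, the folate enzyme, had the lowest median level per length and, against vehicle-treated Tg4-42 mice, the largest log2 fold change of the 10 genes. It was read at 4.08, 2.15 and 5.69 CPM in WT mice, at 4.87, 4.11 and 5.62 CPM in vehicle-treated Tg4-42 mice and at 3.53, 1.04 and 1.46 CPM with caffeine, on 15 to 88 counts a library. Every caffeine value was below the vehicle-treated Tg4-42 values, while WT replicate 2 lay between the caffeine values. The log2 fold change against vehicle was -1.27 with a wide interval (SE 0.42, 95% interval -2.17 to -0.38, edgeR adjusted p = 0.145), and its biological coefficient of variation was 0.330. Aldh1l1 and Gja1 were both called lower under limma-voom with quality weights (adjusted p = 0.0400 and 0.0349), by edgeR without a filter on low counts (0.00581 and 0.0334) and without caffeine replicate 1 (edgeR adjusted p = 0.0341 and 0.0317), the caffeine-treated mouse that was nearest to the vehicle groups for Clu, Glul, Gja1, Aqp4 and Aldh1l1.

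**Figure D2:**
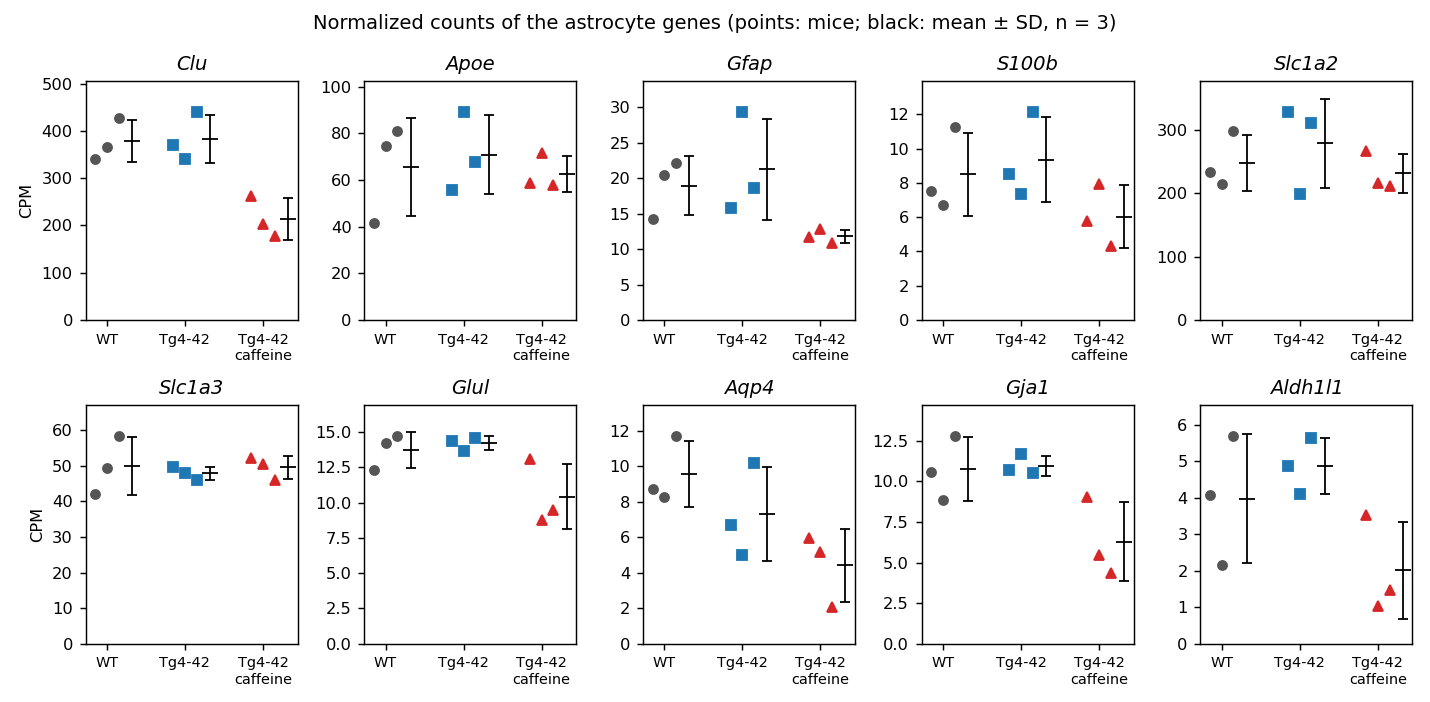
CPM of each astrocyte gene in every mouse, with separate linear axes from 0, points in replicate order within each group, and the mean ± SD (n = 3) in black. The red caffeine points of Clu and Gfap lie below all 6 vehicle points, while those of Slc1a3 and Apoe lie within the vehicle range.

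Counted over the list, 1 of the 10 genes (Clu) was lower with caffeine than in vehicle-treated Tg4-42 mice at an edgeR adjusted p under 0.05, a call made for 0.668% of all tested genes (0.881% in either direction). At an unadjusted p under 0.05, 6 of 10 were lower (Clu, Gfap, Gja1, Aldh1l1, Glul and S100b), against 9.82% of all tested genes, and none was higher (7.15% of all). The caffeine values lay wholly below those of vehicle-treated Tg4-42 mice for 5 of 10 (Clu, Gfap, Gja1, Aldh1l1 and Glul), against 12.6% of all tested genes, and 9 of 10 log2 fold changes were negative, against 51.5%. The median log2 fold change was -0.67, against -0.01 over all tested genes. It was -0.39 without vehicle replicate 3 and -0.41 without caffeine replicate 3. These 2 mice are the ones of their groups sequenced in lane 7, and the differences of single members were wider there than in lane 6 for each gene but Gfap and Slc1a3. For Clu the log2 difference was -0.62 between the 2 caffeine and 2 vehicle mice of lane 6 and -1.31 between the 1 and 1 of lane 7, and for S100b it was -0.21 and -1.39. Aqp4 differed by -0.06 in lane 6 and by -2.05 in lane 7, whereas Gfap was alike in both, at -0.79 and -0.74. Lane 7 held 1 mouse per group, and the part of the lane in these differences was not tested.

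Against WT mice, which formed a second control for the same caffeine-treated mice, again 1 of 10 (Clu) was called lower, against 0.271% of all tested genes (0.415% in either direction). At an unadjusted p under 0.05, 6 of 10 were lower (Clu, Gfap, Gja1, Aldh1l1, Glul and Aqp4), against 8.65%. The values of 3 members (Clu, Gfap and Aqp4) lay wholly below those of WT mice, against 9.67%, all 10 log2 fold changes were negative against 51.5%, and the median was -0.59. Both comparisons use the same 3 caffeine-treated mice and are not independent of each other. Taking the 6 vehicle-treated mice together, only Clu and Gfap of the 10 genes had every caffeine value below every vehicle value, which held for 5.8% of all tested genes.

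Between vehicle-treated Tg4-42 and WT mice, the comparison that asks for an effect of the transgene alone, none of the 10 genes was called by edgeR, DESeq2 or limma-voom, against 0.0979% of all tested genes by edgeR. None had an unadjusted p under 0.05 by edgeR (2.74% of all tested genes), and for none did all mice of one group lie below or above those of the other (3.16% and 3.57% of all). The log2 fold changes ran from -0.39 for Aqp4 to 0.29 for Aldh1l1 with a median of 0.08, and 2 of 10 were negative against 49.5%. The intervals bound how large a difference could have gone unseen: for Clu -0.31 to 0.35, for Slc1a3 -0.34 to 0.22, and for Aldh1l1, the least certain, -0.56 to 1.14.

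**Figure D3:**
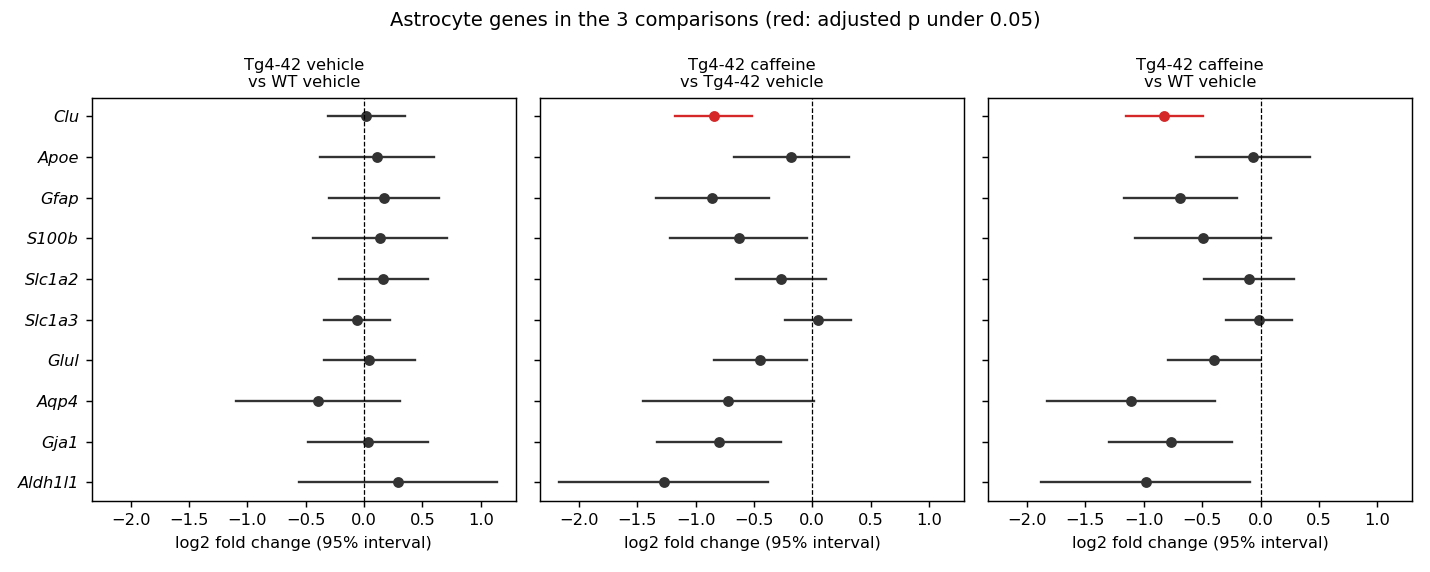
Log2 fold change of each astrocyte gene with its 95% interval from edgeR in the 3 comparisons, with red for an adjusted p under 0.05 over all 17361 tested genes. Clu is red in both caffeine comparisons at -0.84 and -0.82, and in the comparison of vehicle-treated Tg4-42 with WT mice all 10 intervals include 0.

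Other genes of astrocytes were read from lists that had been compiled from general knowledge of these cells, with earlier results of these data known. Of 31 further astrocyte markers, all tested, 26 had a negative and 5 a positive log2 fold change with caffeine against vehicle-treated Tg4-42 mice, with a median of -0.50. Over all tested genes, 51.5% were negative. Of the 31 markers, 1 was called lower, a call made for 0.668% of all tested genes (0.881% in either direction). At an unadjusted p under 0.05, 10 were lower and 1 was higher (9.82% and 7.15% of all tested genes). The called gene was Acsbg1, a fatty acid activating enzyme, with 11.4, 14.8 and 14.1 CPM in vehicle-treated Tg4-42 mice and 8.82, 6.15 and 5.92 CPM with caffeine (log2 fold change -0.95, edgeR adjusted p = 0.0469). Its WT values of 11.5, 12.1 and 14.5 CPM were also above the caffeine values. The call was lost with the lane covariate or the replicate block and in 5 of the 6 fits without 1 mouse. Aldoc, the glycolytic aldolase of astrocytes, had a log2 fold change of -0.62 (edgeR adjusted p = 0.0851). The list is not pure, since Cpe, at a median of 442 CPM per kilobase, and Ntm, at 42.6, are also neuronal genes.

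The reactive astrocyte list spread from no counts to well-read genes, and 22 of its 37 genes passed the filter. The 3 of highest mean were Serpina3n at 38.7 to 97.5 CPM, Ptgs2 at 36.7 to 66.2 CPM and H2-D1 at 31.5 to 60.8 CPM over single mice. None of these 3 was called by edgeR. Lcn2, a defining gene of reactive astrocytes, had 0 counts in every library, and Timp1, Hspb1, Cxcl10, Gbp2 and Slc10a6 did not exceed 3 counts in any. Vim, the second astrocyte filament, ranged from 0.453 to 1.76 CPM. Of the 22 tested genes 12 had a negative and 10 a positive log2 fold change with caffeine against vehicle-treated Tg4-42 mice (median -0.29). Over all tested genes, 51.5% were negative. At an unadjusted p under 0.05, 7 of the 22 were lower and 1 was higher, against 9.82% and 7.15% of all tested genes. S1pr3, a sphingosine phosphate receptor, was called lower, a call made for 0.668% of all tested genes. S1pr3 had 16.4, 8.91 and 12.1 CPM in WT mice, 13.1, 14.3 and 12.3 CPM in vehicle-treated Tg4-42 mice and 7.79, 6.15 and 5.69 CPM with caffeine (log2 fold change -1.02, edgeR adjusted p = 0.0499). This call was lost with RLE scaling or the lane covariate and in 5 of the 6 fits without 1 mouse. Against WT mice, no gene of the reactive list was called by edgeR and 8 of 22 had an unadjusted p under 0.05, against 15.4% of all tested genes.

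Genes around the members in their pathways were also counted, for caffeine against vehicle-treated Tg4-42 mice. In this comparison 51.5% of all tested genes had a negative log2 fold change, 17% had an unadjusted p under 0.05 and 0.881% were called by edgeR. Of 15 tested genes of glutamate and glutamine handling, 11 had a negative log2 fold change (median -0.16), and 1 was called: Slc1a4, a neutral amino acid transporter that carries serine, with 70.9, 82.6 and 86.9 CPM in vehicle-treated Tg4-42 mice and 51.3, 55.7 and 48.2 CPM with caffeine. Its log2 fold change was -0.63 (edgeR adjusted p = 0.0457), and the call was lost with the lane covariate and in all 6 fits without 1 mouse. Of 15 tested endfoot genes for water, potassium and gap junctions, 10 were negative (median -0.12), none was called by edgeR and 2 had an unadjusted p under 0.05. Kcnj10, the potassium channel of endfeet, had 0.834 to 2.21 CPM (11 to 32 counts) and a log2 fold change of 0.59 (edgeR adjusted p = 0.530). Of 16 tested genes of apolipoprotein lipidation and receptors, 12 were negative (median -0.27), none was called and 5 had an unadjusted p under 0.05. Some genes, such as Slc4a4 and Kcnj10, stand in more than 1 of these lists.

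Markers of other cell types were read beside the astrocyte genes. The summed CPM of the 10 astrocyte genes was 714 to 943 in WT mice, 747 to 935 in vehicle-treated Tg4-42 mice and 524 to 688 with caffeine, so the caffeine range lay below both others. The 31 further astrocyte markers gave sums of 2141 to 2852, 2228 to 2765 and 1813 to 2077 CPM. These sums are mainly a reading of Cpe and Ntm, which are also neuronal genes. In the same order of groups, Cpe had 1039 to 1492, 999 to 1453 and 913 to 1153 CPM. Ntm had 344 to 463, 316 to 452 and 228 to 320 CPM. The 11 microglia genes gave sums of 59.5 to 92.3, 68.7 to 99.3 and 55.5 to 64.9 CPM, and the 10 oligodendrocyte genes 343 to 503, 377 to 526 and 267 to 377 CPM. Defining markers of these cells were present in every library, with the microglial receptor Csf1r at 3.66 to 9.11 CPM and the myelin gene Mog at 4.69 to 9.05 CPM. All 11 microglia genes had a negative log2 fold change against vehicle-treated Tg4-42 mice (median -0.61) and 9 of 10 oligodendrocyte genes (median -0.51), with 0 called by edgeR in either list and 4 and 5, all lower, at an unadjusted p under 0.05 (9.82% of all tested genes lower, 51.5% negative). The part of a lower content of glial RNA in the astrocyte differences was not tested.

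Lists of rarer cells differed in level. In every group the mean summed CPM was lowest for the endothelial and mural list, followed by the oligodendrocyte precursor list. It was higher for the ependymal and choroid plexus list and for the neural stem cell list. Of 10 endothelial and mural genes 5 were tested (median -0.28), and the endothelial claudin Cldn5 did not exceed 0.365 CPM per kilobase. Of 7 oligodendrocyte precursor genes 6 were tested (median -0.33), and the precursor receptor Pdgfra had a median of 0.205 CPM per kilobase. Of 7 ependymal and choroid plexus genes 3 were tested (median -1.96), led by transthyretin (Ttr), the choroid plexus marker, which ran from 0.441 to 132 CPM over single mice and from 2.16 to 132 CPM among vehicle-treated Tg4-42 mice alone. Of 10 neural stem cell genes, which share a radial glial programme with astrocytes, 9 were tested (median -0.27). None of these genes was called in the caffeine comparison with vehicle-treated Tg4-42 mice by edgeR, and 0, 1, 1 and 3 had an unadjusted p under 0.05, in the order given, against 17% of all tested genes.

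Sums over the neuronal lists were also read. The 8 pan-neuronal genes summed to 7931 to 8258 CPM in WT mice, 7501 to 9163 in vehicle-treated Tg4-42 mice and 6578 to 7745 with caffeine, so that the caffeine range lay below that of WT mice and overlapped that of vehicle-treated Tg4-42 mice. The median log2 fold change of the 8 genes against vehicle was -0.16, and none was called by edgeR. At an unadjusted p under 0.05, 3 were lower and 2 were higher (9.82% and 7.15% of all tested genes). The lower ones were Syt1 (-0.44), Gad1 (-0.40) and Gad2 (-0.43). The higher ones were Nrgn (0.58) and Rbfox3 (0.28), which encodes NeuN. The 10 dentate granule cell genes had higher sums with caffeine, at 1275 to 1545 CPM against 667 to 1152 in vehicle-treated Tg4-42 and 802 to 1076 in WT mice. All 10 had a positive log2 fold change against vehicle (median 0.71), and 3 were called higher, a call made for 0.213% of all tested genes: Plk5, a kinase-like gene (1.52, edgeR adjusted p = 0.0385), Stxbp6, a SNARE-binding gene (0.81, edgeR adjusted p = 0.0399), and Bcl11b, a transcription factor (0.75, edgeR adjusted p = 0.0469). All 3 calls were lost with the lane covariate and without vehicle replicate 1, vehicle replicate 3 or caffeine replicate 3 (edgeR adjusted p from 0.0858 to 0.306 in these left-out fits), those of Plk5 and Bcl11b also without caffeine replicate 2 (both 0.0523), and that of Bcl11b with the replicate block (0.0515). The 10 CA pyramidal cell genes summed to 619 to 761 CPM in WT mice, 560 to 656 in vehicle-treated Tg4-42 mice and 533 to 552 with caffeine, so the caffeine range lay below both others. Their log2 fold changes against vehicle had 5 of each sign (median 0.03), none called by edgeR and 4 at an unadjusted p under 0.05, against 17% of all tested genes. Against WT mice, the one call among all the lists beside Clu was the pyramidal cell gene Wfs1 (log2 fold change -0.77, edgeR adjusted p = 0.0408), and it was lost with the lane covariate (0.0607) and without WT replicate 2 (0.135), WT replicate 3 (0.0792), caffeine replicate 2 (0.121) or caffeine replicate 3 (0.341). Each CPM is relative to the TMM-scaled size of its library, so the glial and granule cell values of a library share the same scaling. Whether the lower glial and the higher granule cell values depend on each other was not tested.

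**Figure D4:**
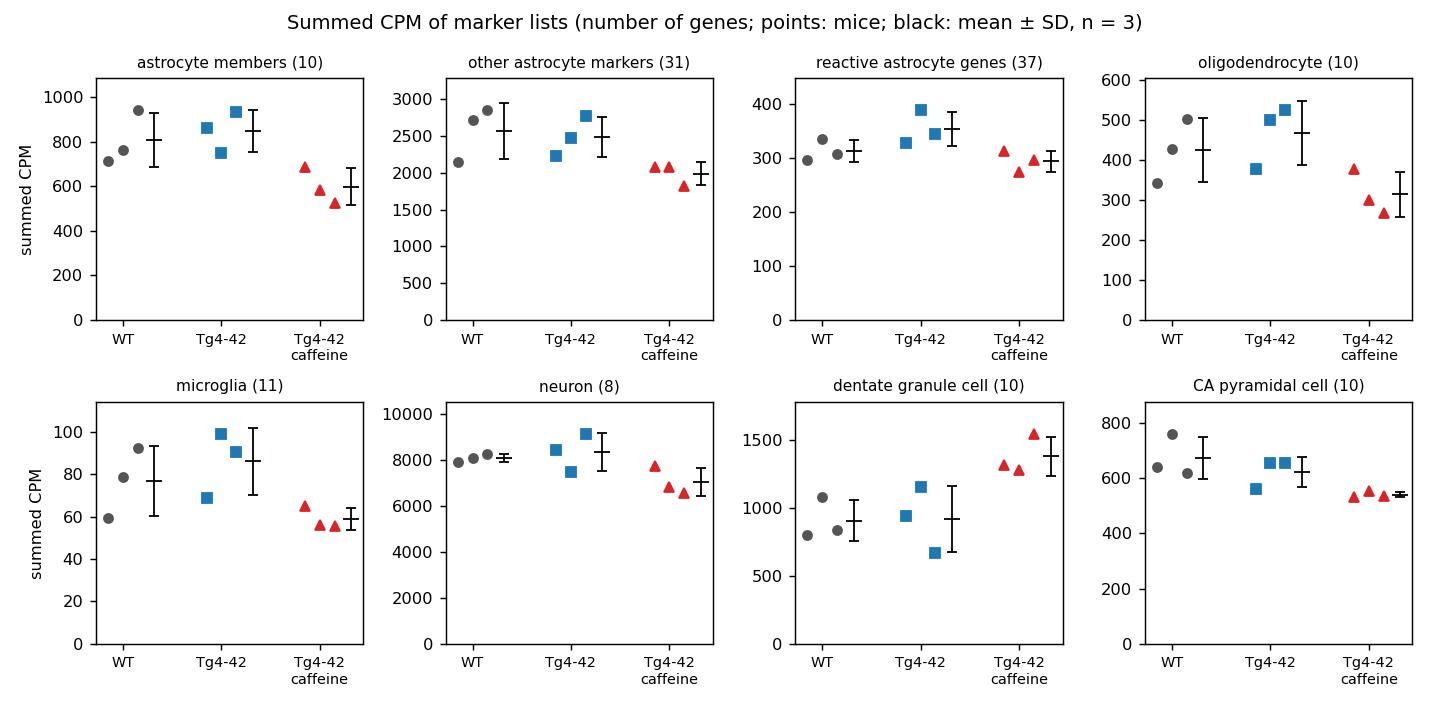
Summed CPM of 8 marker lists in every mouse, with the number of genes in the title of each panel, linear axes from 0, and the mean ± SD (n = 3) in black. The caffeine points lie below both vehicle ranges for the 10 astrocyte genes (524 to 688), the further astrocyte markers (1813 to 2077) and the CA pyramidal cell genes (533 to 552), above both for the dentate granule cell genes (1275 to 1545), and overlap at least 1 vehicle group in the other panels. The sum of the further astrocyte markers is mainly a reading of Cpe and Ntm, which are also neuronal genes.

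The members were also compared among themselves within groups, as deviations of each mouse from its group mean on the log2 scale. Of the 45 pairs, 40 had a positive correlation, with a median r of 0.47. Gfap and Apoe were the closest pair, with Pearson r = 0.93 and Spearman rho = 0.93 over 9 mice (both exact permutation p = 0.00463 within groups, the smallest the 216 permutations can give, and 0.208 after Benjamini-Hochberg adjustment over the 45 pairs), and r = 0.96 without the 2 mice farthest in Gfap. In each group the mouse of highest Gfap was also that of highest Apoe. Aqp4 and Clu followed with r = 0.88 and rho = 0.82 (exact permutation p = 0.0231 and 0.0509, adjusted 0.260 and 0.458), and r = 0.82 without the 2 mice farthest in Aqp4. No pair passed the adjustment. All values of a pair come from the same libraries and share their depth and composition.

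**Figure D5:**
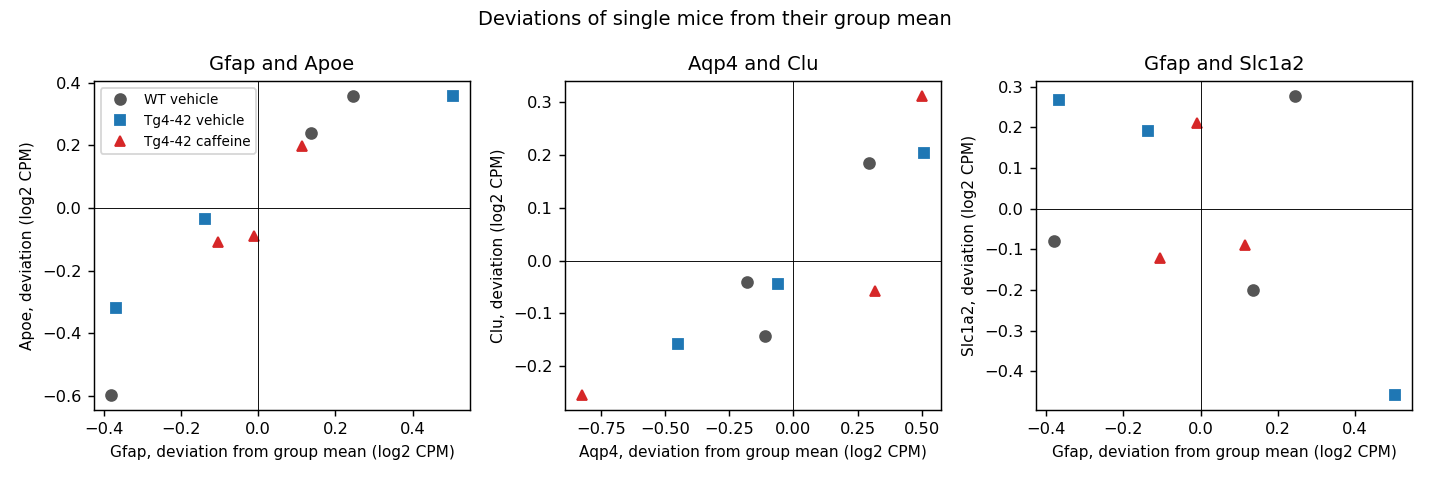
Deviation of single mice from their group mean in log2 CPM for Gfap and Apoe, Aqp4 and Clu, and Gfap and Slc1a2, with a symbol and colour per group. The 9 points of Gfap and Apoe run along a rising line (r = 0.93), and Tg4-42 vehicle replicate 2 is at the upper right for Apoe and at the lower right for Slc1a2.

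Over all 9 mice, group differences included, genes whose log2 CPM was among the most like the mean of the 10 astrocyte genes were Cdh6 (r = 0.99), Tmem196 (r = 0.99), Slc39a10 (r = 0.98) and Tmem33 (r = 0.98), none of which is in the marker lists. Cdh6 encodes a cadherin. These were picked from the highest of 17361 correlations and are a description of 9 libraries. The 31 further astrocyte markers had a median r of 0.68 with that mean, against -0.00 over all tested genes, and 10 of the 31 had an r over 0.8, against 5.73% of all tested genes.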

How the data were processed

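Nuclei from frozen hippocampi were stained for NeuN, sorted, and sequenced as single-end reads of 50 bases after SMART-Seq and Nextera XT preparation. The authors aligned the reads to the mouse genome (mm10, GRCm38) with STAR and counted them over exons with featureCounts. Versions, gene annotation and strand setting are not given in the sources used here. The deposited values are raw counts per gene, 1 table per library, with no normalization. Symbols, coordinates and exon lengths came from GENCODE M21 (GRCm38), which gave a symbol to 48349 of the 48709 identifiers, and promoter sequences from RefSeq (GRCm38.p6), in which 8 of the 10 genes had an entry (not Clu and Aqp4).

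Groups followed the labels, which name the treatment only for the caffeine group. The labels speak of 6 animals per group and the methods of 3, and each library bears its own animal number, so whether a library pooled animals is not given. Replicate numbers follow accession order and only name a mouse. Replicates 1 and 2 were sequenced in lane 6 and replicate 3 in lane 7.

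The main test was the edgeR quasi-likelihood F-test (edgeR 4.0.16, R 4.3.3) with all 9 libraries in 1 model of 3 groups, TMM scaling, filterByExpr (minimum count 10, minimum total 15), robust dispersion and Benjamini-Hochberg adjustment over 17361 genes at 0.05. It replaces DESeq2, which the study used and which served as an alternative (DESeq2 1.42.0), beside limma-voom (limma 3.58.1) and the others listed at the end. The fit was tested on simulated data. With 3 against 3 mice, an exact two-sided permutation test of single genes cannot give a p below 0.1, and it gave 0.1 for Clu and Gfap in both caffeine comparisons. Correlations between members used log2(CPM + 0.5) and two-sided exact permutation within groups (scipy 1.17.1). Correlations of other genes with the members' mean used log2(CPM) with a prior count of 2 and had no permutation test.

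The members and the 15 gene lists were chosen with earlier results of these data known. Named beyond the members were the genes of these lists that were called, the 3 of highest mean CPM in a list, the first 3 genes of a list of another cell type and genes from the 5 of highest correlation with the members' mean, of which some results are not reported here. Aldoc, Kcnj10, Vim, Gad1, Gad2, Nrgn and the reactive astrocyte genes at 3 or fewer counts were chosen after their values were seen. Neither wildtype mice on caffeine nor the study's other mouse line was analysed here.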

Additional observations from a re-analysis of the deposited data

How the results depend on the processing

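Against 1 member called lower with caffeine than in vehicle-treated Tg4-42 mice (Clu), DESeq2 called 2 (Gfap and Clu), edgeR without a filter on low counts 4 and limma-voom 4 (Gfap, Aldh1l1, Gja1 and Clu in both), and edgeR with the sequencing lane as a covariate 0. Leaving out 1 mouse gave 0 to 3 calls and moved the median log2 fold change between -0.76 and -0.39. Against WT mice, DESeq2 called 2 (Aqp4 and Clu), edgeR without a filter 4 (Gfap, Aqp4, Gja1 and Clu), limma-voom 1 (Clu) and the lane covariate 0, with 0 to 2 without 1 mouse. For vehicle-treated Tg4-42 against WT mice, no setting called a member. The replicate number as a block left the calls at 0, 1 and 1, with 16, 187 and 82 genes called in all against 17, 153 and 72. Deviations of same-numbered mice correlated between -0.17 and 0.19, and the numbers pair nothing by the labels. RLE scaling and fits of only the 2 groups compared gave the same member counts as the main fit. Over all genes, the 17 calls between vehicle groups became 74 without a filter. The 153 calls of caffeine against vehicle-treated Tg4-42 mice became 751 with DESeq2, 987 without a filter, 9 with the lane covariate, 587 with limma-voom and 0 to 341 without 1 mouse, and the 72 against WT became 553, 860, 42, 125 and 16 to 287. The causes were not tested.

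Signs turned only for members with small differences. Between vehicle-treated Tg4-42 and WT mice, Clu was at -0.0024 with limma-voom, and without 1 mouse the log2 fold changes ran from -0.14 to 0.34 for Gfap, -0.17 to 0.057 for Slc1a3, -0.013 to 0.64 for Aldh1l1, -0.092 to 0.17 for Gja1, -0.13 to 0.28 for Apoe, -0.027 to 0.090 for Glul, -0.10 to 0.11 for Clu and -0.11 to 0.39 for S100b. With caffeine, Apoe ran from -0.32 to 0.031 against vehicle and from -0.31 to 0.12 against WT, Slc1a2 from -0.22 to 0.055 and Slc1a3 from -0.12 to 0.12 against WT. Depth limits Aldh1l1 and Aqp4 most, at 15 and 27 counts in their lowest libraries.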
